A study of Mus musculus with 40 samples.

Results

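RMER elements are repeat copies of the mouse genome whose repeat name starts with RMER, most of them long terminal repeats (LTRs) left by endogenous retroviruses of rodents. They were chosen by that name alone, without regard to their values, and made up 26308 of the 835636 repeat copies in the deposited expression table, or 3.15%. The 26308 copies carried 85 repeat names, of which 31 were compound names covering 415 copies. Their median length was 427 bases, with a range of 11 to 6672 bases. By annotated class, 13998 copies were ERVK, 5750 ERVL and 2525 ERV1, the 3 groups of endogenous retroviruses. The name also takes in 3274 copies of the RMER1 group, classed as Other, and 761 copies of RMER30, classed as a hAT-Charlie DNA transposon, so that these are RMER by name but are not annotated as LTRs.

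The study grew melanoma cells of the YUMM1.7 line, a cultured mouse line of C57BL/6 origin, as tumours passaged serially through mice. Poly(A) RNA was then sequenced from cells that had been taken out of dissociated tumours and grown in culture for 1 to 3 passages, and the labels describe no sort of tumour from host cells. The 40 libraries fell into 11 groups. Groups of 3 libraries were the parental YUMM1.7 line, N2.2, N2.3, CBA, Balb/c-2 and a further set named Balb/c-2 rep2. Groups of 4 were F0, F1 and Balb/c-1, and groups of 5 were N2.1 and F2, each name other than YUMM1.7 standing for a passage as tumours. Every group was YUMM1.7 melanoma cells, and the labels give no drug treatment, no genotype of the cells and no age of the mice. Balb/c and CBA are names of mouse strains, but the labels do not spell out the strain of the host mice for any group. Capital letters name different tumours of a passage. The 3 Balb/c-2 rep2 libraries carry the tumour letters of the Balb/c-2 libraries and are repeat libraries of those tumours. The labels do not spell out what F0, F1, F2 and N2 stand for. Nor do they say which libraries were sequenced in 2021 and which in 2022, apart from the F2 cells having been sequenced again in 2022. Library names of Balb/c-2 rep2 and CBA, and of no other group, carry a suffix in the form of a sequencing run code. P-values below measure only the spread between tumours or cultures of one passage.

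LTRs flank an integrated retrovirus and hold its promoter, enhancer sequences and polyadenylation signal. When the internal part is lost by recombination between the flanking copies, a solitary LTR remains, which can still drive a transcript, end one, or simply be carried along in the intron or untranslated region (UTR) of a host gene. In most somatic cells LTR promoters are held silent by DNA methylation and by histone methylation directed by KRAB zinc finger proteins, so RNA that covers an RMER copy may come from the copy's own promoter or from a gene around it.

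Sequences of 5 called copies are shown because a reference file covered them and because they stand for the main patterns below. The first pair are RMER19B copies that were lower in N2.1 than in F2. The copy near Dmp1, at chr5:104197201-104198095 in mm10, is printed over its stretch chr5:104197325-104197574 on the plus strand, the 250 bases before the RefSeq start of Dmp1 (GRCm38.p6), although GENCODE M21 places the nearest Dmp1 exon or start 4518 bases from the copy. The copy in the noncoding RNA Gm44645 is printed over chr7:73423173-73423472 on the plus strand, from the GENCODE M21 transcript. Capitals mark bases identical between both copies in a local alignment, which paired 157 bases and found 129 identical (82.2%).
RMER19B near Dmp1: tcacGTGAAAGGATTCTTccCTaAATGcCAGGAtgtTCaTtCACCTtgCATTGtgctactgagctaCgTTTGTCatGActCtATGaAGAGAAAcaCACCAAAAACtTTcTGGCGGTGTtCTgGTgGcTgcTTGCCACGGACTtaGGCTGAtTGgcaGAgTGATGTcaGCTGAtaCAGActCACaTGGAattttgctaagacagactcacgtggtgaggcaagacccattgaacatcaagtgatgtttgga
RMER19B in Gm44645: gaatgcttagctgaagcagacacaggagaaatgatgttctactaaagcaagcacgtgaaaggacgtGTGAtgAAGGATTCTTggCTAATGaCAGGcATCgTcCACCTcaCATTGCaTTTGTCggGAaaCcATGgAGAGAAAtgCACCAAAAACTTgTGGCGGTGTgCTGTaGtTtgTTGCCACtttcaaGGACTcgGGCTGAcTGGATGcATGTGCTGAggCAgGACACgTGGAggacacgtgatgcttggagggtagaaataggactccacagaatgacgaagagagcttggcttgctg

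The next pair are RMER15 copies that changed in opposite directions in different comparisons. The copy in the noncoding RNA Gm13111, an antisense transcript, spans chr4:154643368-154643533 and is printed whole on the plus strand. The other spans chr7:3475048-3475222 ahead of the RefSeq start of Gm45920, and is printed whole on the plus strand, the strand opposite to that gene. Capitals mark bases identical between both copies as printed: 55 of 82 aligned bases (67.1%).
RMER15 in Gm13111: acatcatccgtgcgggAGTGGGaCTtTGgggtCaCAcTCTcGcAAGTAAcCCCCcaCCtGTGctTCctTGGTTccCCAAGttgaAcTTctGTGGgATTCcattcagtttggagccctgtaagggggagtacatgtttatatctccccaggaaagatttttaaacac
RMER15 before Gm45920: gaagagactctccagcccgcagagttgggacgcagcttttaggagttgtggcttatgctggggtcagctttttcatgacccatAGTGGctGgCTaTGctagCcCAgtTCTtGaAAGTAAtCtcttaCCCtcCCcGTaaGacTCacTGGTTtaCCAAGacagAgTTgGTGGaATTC

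The fifth is the RMER1C copy at chr8:61912551-61913106, which holds the start of the antisense RNA 4930512H18Rik and was lower in CBA than in Balb/c-2 rep2. It is printed over chr8:61912810-61913106 on the plus strand (297 bases), and the 47 capitals mark the bases downstream of the RefSeq start.
RMER1C at 4930512H18Rik: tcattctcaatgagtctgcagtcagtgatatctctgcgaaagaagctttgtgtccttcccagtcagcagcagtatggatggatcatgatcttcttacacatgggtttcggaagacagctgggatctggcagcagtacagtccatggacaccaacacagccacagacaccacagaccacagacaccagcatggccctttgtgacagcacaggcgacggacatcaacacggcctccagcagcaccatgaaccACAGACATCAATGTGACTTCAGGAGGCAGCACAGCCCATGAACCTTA

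Among the RefSeq gene start windows of the build, each running from before to just after a start, 178 overlapped an RMER copy and 49 lay wholly inside one. Apart from the windows of Dmp1 and Gm32219, the 49 lay in RMER copies too low in signal to be tested below. The TATA box letters TATAAA, searched on both strands, were found in 15 of those 49 windows (30.6%) and in 4473 of all 32851 windows (13.6%). The AP-1 motif TGANTCA, also on both strands, was in 7 of the 49 windows (14.3%) and in 2565 of all windows (7.81%). Of the 5 printed sequences, the RMER15 copy in Gm13111 alone held either motif: TATAAA on its minus strand at bases 135 to 140, counted from the first base printed. These are letter matches and were not tied to any measured binding.

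The deposited values, called signal here, are whole reads divided by 1 factor per library, so that 1 read was worth 0.659 to 1.51 signal depending on the library. Libraries held 1280522 to 2976730 reads over all repeat copies. RMER copies took 1.97% to 2.24% of each library's signal, a narrow range across all 11 groups. Signal in introns took 18.9% ± 4.32 (SD, n = 5) of each F2 library and 24.8% ± 2.28 (SD, n = 5) of each N2.1 library, with 18.4% ± 0.949 (SD, n = 3) in Balb/c-2 rep2 and 25.9% ± 1.38 (SD, n = 3) in CBA. Markers of cell types can be read only from repeat copies inside their exons. Of 10 melanocyte lineage markers, 3 were readable. Their sum was at 0 to 4.61 outside N2.3 and at 5.08 to 61.3 in N2.3, mostly read from Erbb3, while the pigment enzyme gene Tyr was at 0 in 39 libraries and Mlana at 0 in 37, so the labelled melanoma type was not visible in its defining markers here. Of 9 fibroblast markers 6 were readable, with a sum of 629 to 3337. The sum came mainly from the receptors Pdgfra and Pdgfrb, at medians of 475 and 818. Postn was read as well, at 0 to 1147 (median 95.8) and at 0 in 1 library. The collagen gene Col1a1 was at 0 in 26 libraries, Dcn in 36 and Thy1 in 33. Of 9 immune markers 6 were readable and summed to 2.05 to 53.1. Cd14 was read in every library, at 1.02 to 37.6 (median 16.2). Ptprc was at 0 in 37 libraries, Cd3e in 39, Csf1r and Itgam each in 33 and Adgre1 in 32. The 1 readable endothelial marker, Pecam1, was at 0 in 36.

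Most RMER copies lay in introns or between genes, but most of their signal did not. Introns held 12897 copies with 27.7% of the RMER signal, and intergenic sequence held 11838 copies with 14.3%. The 381 copies in 3′ UTRs, the part of an mRNA after its stop codon, held 42.6% of the signal. Coding exons held 6.36% on 68 copies, noncoding exons 8.01% on 1054 copies, and 5′ UTRs 1.11% on 70 copies. Over all repeat copies the shares were 46.2% for 3′ UTRs, 21.7% for introns and 7.84% for intergenic copies, so RMER signal was placed somewhat more outside exons than repeat signal in general. By class, ERVK copies held 55.2% of the RMER signal, ERVL 19.1%, RMER1 15.7%, ERV1 5.67% and RMER30 4.35%.

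The signal was concentrated in few copies. At least 1 read was seen for 26159 copies and none in any library for 149. The 10 copies with the highest mean held 20.2% of RMER signal and the 100 highest held 49.7%. Tests were run on copies whose mean over the 40 libraries was 5 signal or more, which 934 RMER copies reached (3.55%, against 3.97% of all copies). Those 934 held 77.7% of RMER signal, and the values just inside and just outside the threshold were both 5.0.

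Copies in 3′ UTRs of host genes led the list. In Zwint, which encodes a kinetochore protein, an RMER6D copy at chr10:72673940-72674330 averaged 1378 signal, with group means of 1213 to 1939. The adjoining RMER6C copy at chr10:72674362-72674750 averaged 1317 and supplied 71.4% of all RMER6C signal. In Eif2s3x, which encodes a translation initiation subunit, the RMER1B copy at chrX:94190017-94190538 averaged 1016, with group means of 839 to 1252. These 3 copies kept a similar level through the passages, and no comparison called any of them.

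The other leading copies varied more. The RMER19B copy in the 3′ UTR of Il6st, the shared receptor subunit of interleukin-6 family cytokines, at chr13:112507397-112508163, averaged 976 with group means of 564 to 1461. The RMER1B copy in Cflar, an inhibitor of caspase-8, at chr1:58754524-58755174, averaged 737. Cflar's copy was at 784, 579 and 1324 in Balb/c-2 rep2 and at 492, 510 and 370 in CBA, a fall of 0.90 ± 0.26 (SE) on the log2 scale (limma, Benjamini-Hochberg adjusted p = 0.0321). Those groups did not overlap. The RMER19B copy in H2-Q4, a class I histocompatibility gene, at chr17:35384128-35384352, ranged from 27.2 ± 24.3 (SD, n = 4) in F0 to 1813 ± 592 (SD, n = 3) in Balb/c-2 rep2. No comparison called it, and single libraries of 1 passage ranged as widely as 9.66 to 548 in F1.

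Summed by repeat name, 65 RMER subfamilies reached the mean signal of 5. RMER19B, an ERVK LTR with 1378 copies of which 78 were tested, had the highest sum, and it was highest in Balb/c-2 (7257 ± 1121, SD, n = 3) and its rep2 set (7340 ± 705, SD, n = 3). From the parental line to Balb/c-1 its group means were 4197 to 5214, and in CBA it was 3814 ± 484 (SD, n = 3). The 2 copies in H2-Q4 went from a summed mean of 45.2 in YUMM1.7 to 2009 ± 761 (SD, n = 3) in Balb/c-2, and 6 copies of equal length on chromosome 1 from 30.7 ± 5.42 (SD, n = 3) to 1193 ± 727 (SD, n = 3). Without these and the Il6st copy, the other 1369 RMER19B copies summed to 3344 ± 273 (SD, n = 5) in F2, 2737 ± 154 (SD, n = 5) in N2.1, 3119 ± 353 (SD, n = 3) in Balb/c-2 rep2 and 2507 ± 118 (SD, n = 3) in CBA. Splitting RMER19B this way was chosen after its values were seen.

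RMER15, an ERVL LTR with 2838 copies, showed a step rather than a drift. Its sum was 3219 to 3335 as a group mean in YUMM1.7, F0, F1 and F2, with SDs of at most 146. In N2.1, N2.2, N2.3, Balb/c-1 and Balb/c-2 the group means were 4083 to 4703. Balb/c-2 rep2 was at 3499 ± 73.5 (SD, n = 3) and CBA at 3296 ± 198 (SD, n = 3), back near the early groups. These sums had no scaling beyond that of the deposited values. Over all repeat names the median log2 difference was 0.32 in N2.1 against F2, so part of the step was not particular to RMER15. RMER4B moved from 2340 ± 88.2 (SD, n = 5) in F2 to 2765 ± 128 (SD, n = 5) in N2.1 and reached 3214 ± 118 (SD, n = 3) in Balb/c-2. RMER6A was at 1367 ± 246 (SD, n = 5) in F2, 1791 ± 100 (SD, n = 5) in N2.1 and 2012 ± 153 (SD, n = 3) in CBA. RMER1B, RMER6C, RMER30 and RMER15-int, the internal part of RMER15 elements, completed the 8 highest. Their group means ranged from 3325 to 4591 for RMER1B, 1606 to 2322 for RMER6C, 1553 to 1933 for RMER30 and 1478 to 1798 for RMER15-int.

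**Figure D1:**
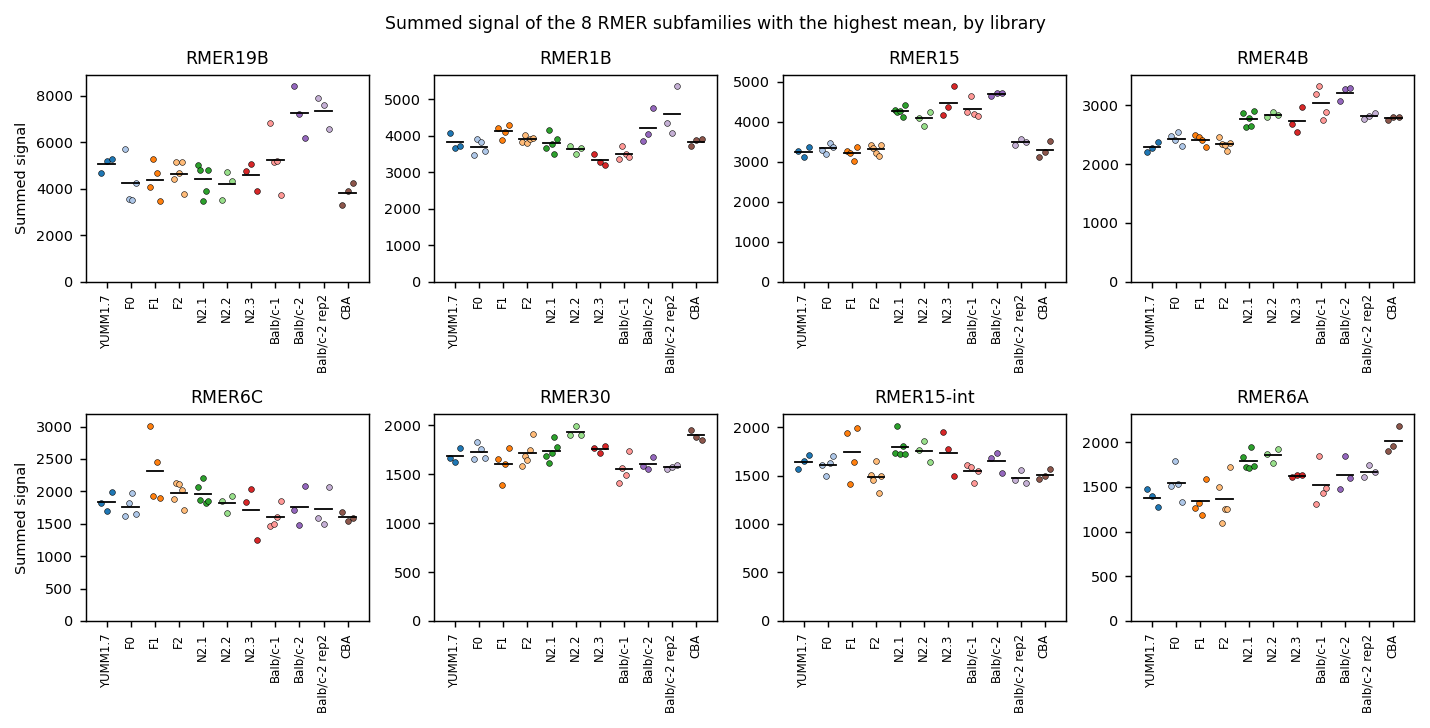
Summed signal (linear y axis from 0) of the 8 RMER subfamilies with the highest mean, by group on the x axis; each point is 1 library and each bar a group mean. RMER19B is highest in Balb/c-2 and its rep2 set (means 7257 and 7340), and RMER15 is higher in N2.1 to Balb/c-2 (4083 to 4703) than in the earlier groups and in the last 2 groups drawn.

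In each of 8 comparisons between groups, every one of the 33215 tested repeat copies was fitted together with limma on log2(signal + 1), and a copy was called at a Benjamini-Hochberg adjusted p under 0.05 over all of them. Fold changes are log2 differences on that scale, which understates the change of copies with low signal. Consecutive comparisons share a group, so a high or low group enters both. In bulk RNA of this kind, fewer cells of a type and less RNA per cell cannot be told apart. RMER copies were called about as often as repeat copies in general. For N2.1 against F2 the calls were 98 of 934 RMER copies (10.5%), beside 9.70% of all copies. For CBA against Balb/c-2 rep2 they were 60 (6.42%), beside 5.93%. Balb/c-1 against N2.3 gave 21 (2.25%) beside 2.2%, and N2.3 against N2.1 gave 20 (2.14%) beside 1.40%. The remaining comparisons called few copies of any kind: 3 (0.321%) beside 0.232% for Balb/c-2 rep2 against Balb/c-2, 1 (0.107%) beside 0.0391% for F2 against F0, and 0 beside 0 for both F0 against YUMM1.7 and Balb/c-2 against Balb/c-1.

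Other LTR families gave similar shares. In N2.1 against F2 the calls were 9.55% of tested ORR1 copies and 7.87% of tested MT copies, both mammalian apparent LTR families, and 9.86% of all copies of an LTR class. In CBA against Balb/c-2 rep2 the shares were 5.50%, 5.94% and 6.25%. No test of a difference between families was made.

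**Figure D2:**
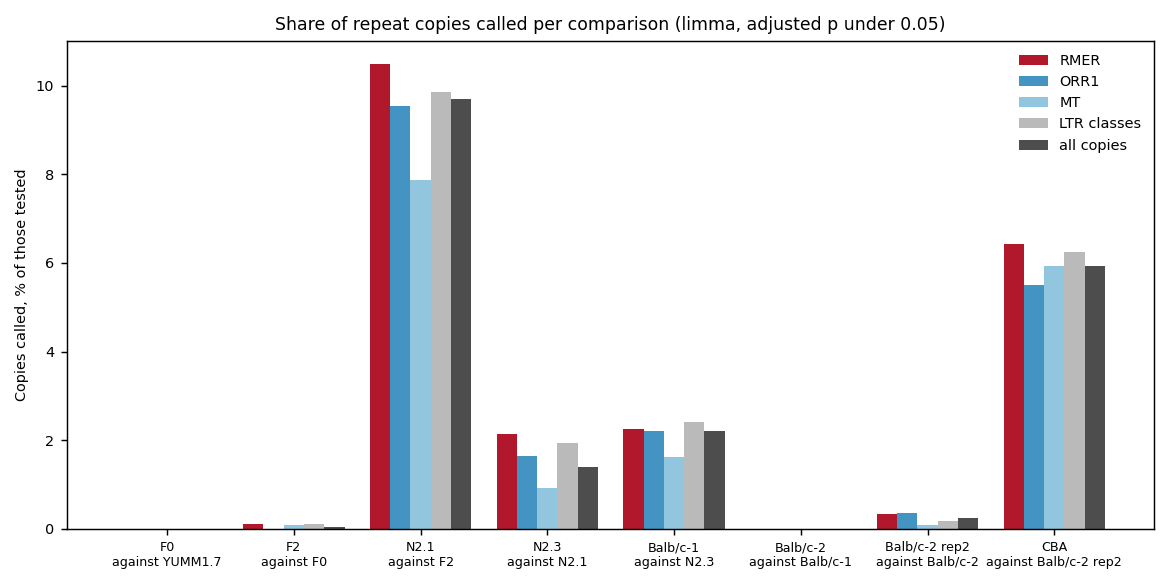
Percent of tested copies called (y axis, from 0) in each of the 8 comparisons (x axis) for RMER copies, ORR1 copies, MT copies, all LTR classes and all repeat copies. RMER bars stand near those of all copies in every comparison, at 10.5% beside 9.70% in N2.1 against F2 and 6.42% beside 5.93% in CBA against Balb/c-2 rep2.

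The parental line and F0 were compared first, which asks what a first growth as tumours changed. No RMER copy was called by limma (88 at an unadjusted p under 0.05), nor by edgeR or DESeq2 on recovered reads, which gave 0 and 0. The copy with the smallest adjusted p was an RMER30 copy in a noncoding exon of Tjap1, with 41.1, 53.8, 36.8 and 44.5 in F0 against 17.4, 12.1 and 12.6 in YUMM1.7. Those values did not overlap, but the difference of 1.59 ± 0.39 (SE) had a limma adjusted p of 0.245. An intronic RMER10A copy of Rcc2 followed with 1.40 and the same adjusted p. No subfamily was called either (6 at an unadjusted p under 0.05, 0% of all names called).

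Between F2 and F0 the RMER4B copy in the 3′ UTR of Vangl1, a planar cell polarity gene, at chr3:102155204-102155387, was the 1 called copy. It held 41.0, 41.5, 15.8, 46.9 and 27.3 in F2 against 9.14, 19.1, 9.19 and 11.6 in F0, and the groups overlapped through the F2 library with 15.8. The rise was 1.39 ± 0.28 (limma adjusted p = 0.0446) and was not called without F0 library C (adjusted p = 0.270). As its groups overlapped, it was named after its values were seen. The internal sequence RMER17A-int fell as a sum, with 21.9, 12.0, 8.4, 11.5 and 17.3 in F2 against 40.2, 41.6, 41.9 and 27.1 in F0. That fall was 1.40 ± 0.30 (adjusted p = 0.0268, beside 0.328% of all names called), and without F0 library C the adjusted p was 0.124.

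N2.1 against F2 was the only comparison with 5 libraries in both groups, so its number of calls is not like for like with the others. It held the most RMER calls, with 64 copies higher and 34 lower. Those inside genes lay in 65 distinct host genes, and 53 of the 98 (54.1%) had groups that did not overlap, beside 1824 of all 3222 called copies (56.6%). Without F2 library B, 59 RMER copies were called. The median difference over tested RMER copies was 0.28, and over all tested copies 0.26, so the whole table sat higher in N2.1. Scaling with TMM (trimmed mean of M values, which centres each library on its typical copy) brought the median of all copies to 0.06. On that scale 37 RMER copies were called higher and 50 lower, while over all copies the calls went from 2439 higher and 783 lower to 1348 and 1403.

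The split between higher and lower calls differed by place in the gene. Of 430 tested RMER copies in introns, 34 rose and 1 fell. Of 164 intergenic copies, 15 rose and 10 fell. In 3′ UTRs 10 rose and 15 fell among 168, in noncoding exons 5 rose and 4 fell among 136, and in coding exons and 5′ UTRs 4 fell and none rose. Over all tested repeat copies 1055 rose and 83 fell of 14031 in introns, 299 and 97 of 3493 between genes, and 278 and 97 of 4823 in noncoding exons. In 3′ UTRs 660 of all copies rose and 347 fell among 8198, in coding exons 117 and 124 among 2135, and in 5′ UTRs 30 and 35 among 535. Calls in introns thus leaned higher in both. In 3′ UTRs they leaned lower for RMER copies and higher for all copies, a difference that was not tested. Copies of the same gene were counted singly. The RMER falls in 3′ UTRs included neighbouring RMER10B, RMER17C-int, RMER1B and RMER10A copies of the same gene, Tnfrsf23, so they are not separate cases. The median over intronic RMER copies was 0.48, beside 0.43 over all tested copies in introns. The share of each library's signal that lay in introns moved with this comparison, from 18.9% in F2 to 24.8% in N2.1, and with that share as a covariate 26 copies were called higher and 18 lower. Over all tested copies the covariate gave 842 calls higher and 305 lower. Of the 12 copies that met the naming rule in this comparison, RMER2 in Gm11884, RMER16-int on chromosome 13 and RMER10A near Anapc1 lost their calls with it, and the other 9 kept theirs. By name, RMER15 rose in 12 of 98 tested copies and fell in none, RMER6A rose in 5 of 52, and RMER19B rose in 9 and fell in 8 of 78.

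Several copies with few or no reads in F2 were read in every N2.1 library. An RMER19A copy in an intron of the long noncoding RNA Gm11884, at chr4:23275014-23275753, held 67.2, 8.18, 5.20, 49.5 and 12.8 in N2.1 and no read in any F2 library. Its difference was 4.27 ± 0.63 (limma adjusted p = 1.07e-05), and it was at least 9.67-fold higher when F2 is set to 3 reads per library. An RMER2 copy of the same intron, at chr4:23278374-23278795, held 38.6, 4.09, 10.4, 27.4 and 5.27 against at most 1.82 in F2. It rose by 3.24 ± 0.68 (adjusted p = 0.00127), and its adjusted p was 0.0746 with the intron share as covariate.

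Intergenic copies far from any coding gene gave 2 more cases. The RMER12B copy at chr18:18810730-18811760 held 84.0, 4.09, 8.31, 60.1 and 22.6 in N2.1, and 0, 0, 1.05, 0 and 0.909 in F2. It rose by 4.10 ± 0.50 (adjusted p = 2.65e-07), and all 12 tested repeat copies within 10 kb of it were also called higher. The RMER19B copy at chr3:16537303-16538270 held 33.6, 17.4, 4.16, 23.0 and 3.76 against 0, 0, 0, 0.956 and 0, a rise of 3.51 ± 0.51 (adjusted p = 6.94e-06). These 4 copies were at 0 to 6.40 signal in YUMM1.7, F0 and F1 and were read in nearly every later library, CBA included.

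Falls were as deep. The RMER6D copy in the 3′ UTR of Ptgfr, the prostaglandin F receptor, at chr3:151799492-151800263, held 55.6, 215, 134, 72.7 and 85.4 in F2 and 10.9, 7.16, 0, 0 and 0 in N2.1. It fell by 5.34 ± 0.74 (adjusted p = 3e-06). The RMER19B copy near Dmp1, whose sequence is given above, held 71.1, 197, 59.0, 77.5 and 83.6 in F2 and 8.40, 29.7, 0, 13.2 and 0.752 in N2.1. Its fall was 3.92 ± 0.67 (adjusted p = 9.73e-05). In the parental line it had held 221, 205 and 209, the highest of any group, and from N2.2 to CBA no library exceeded 8.33.

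The related RMER19B copy in Gm44645 went the same way at a lower level. It held 31.0, 21.9, 19, 28.7 and 29.1 in F2 against 10.9, 6.14, 3.12, 5.30 and 10.5 in N2.1, without overlap, and fell by 1.80 ± 0.46 (limma adjusted p = 0.00888). With all copies tested and no minimum signal, its adjusted p was 0.234. Smaller falls were those of an RMER16-int copy at chr13:75645241-75647763 (2.02 on the log2 scale, adjusted p = 0.0172), an RMER10A copy near Anapc1 and an RMER17C copy near 1110032A03Rik, whose adjusted p values were 0.0444 and 0.0317. These 3 calls were lost in 2, 6 and 5 of the 10 fits that left out 1 library, with adjusted p values of up to 0.0652 (without N2.1 library C), 0.179 (without N2.1 library A) and 0.0780 (without F2 library C). With the intron share as covariate the adjusted p was 0.144 for the RMER16-int copy and 0.349 for the RMER10A copy.

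**Figure D3:**
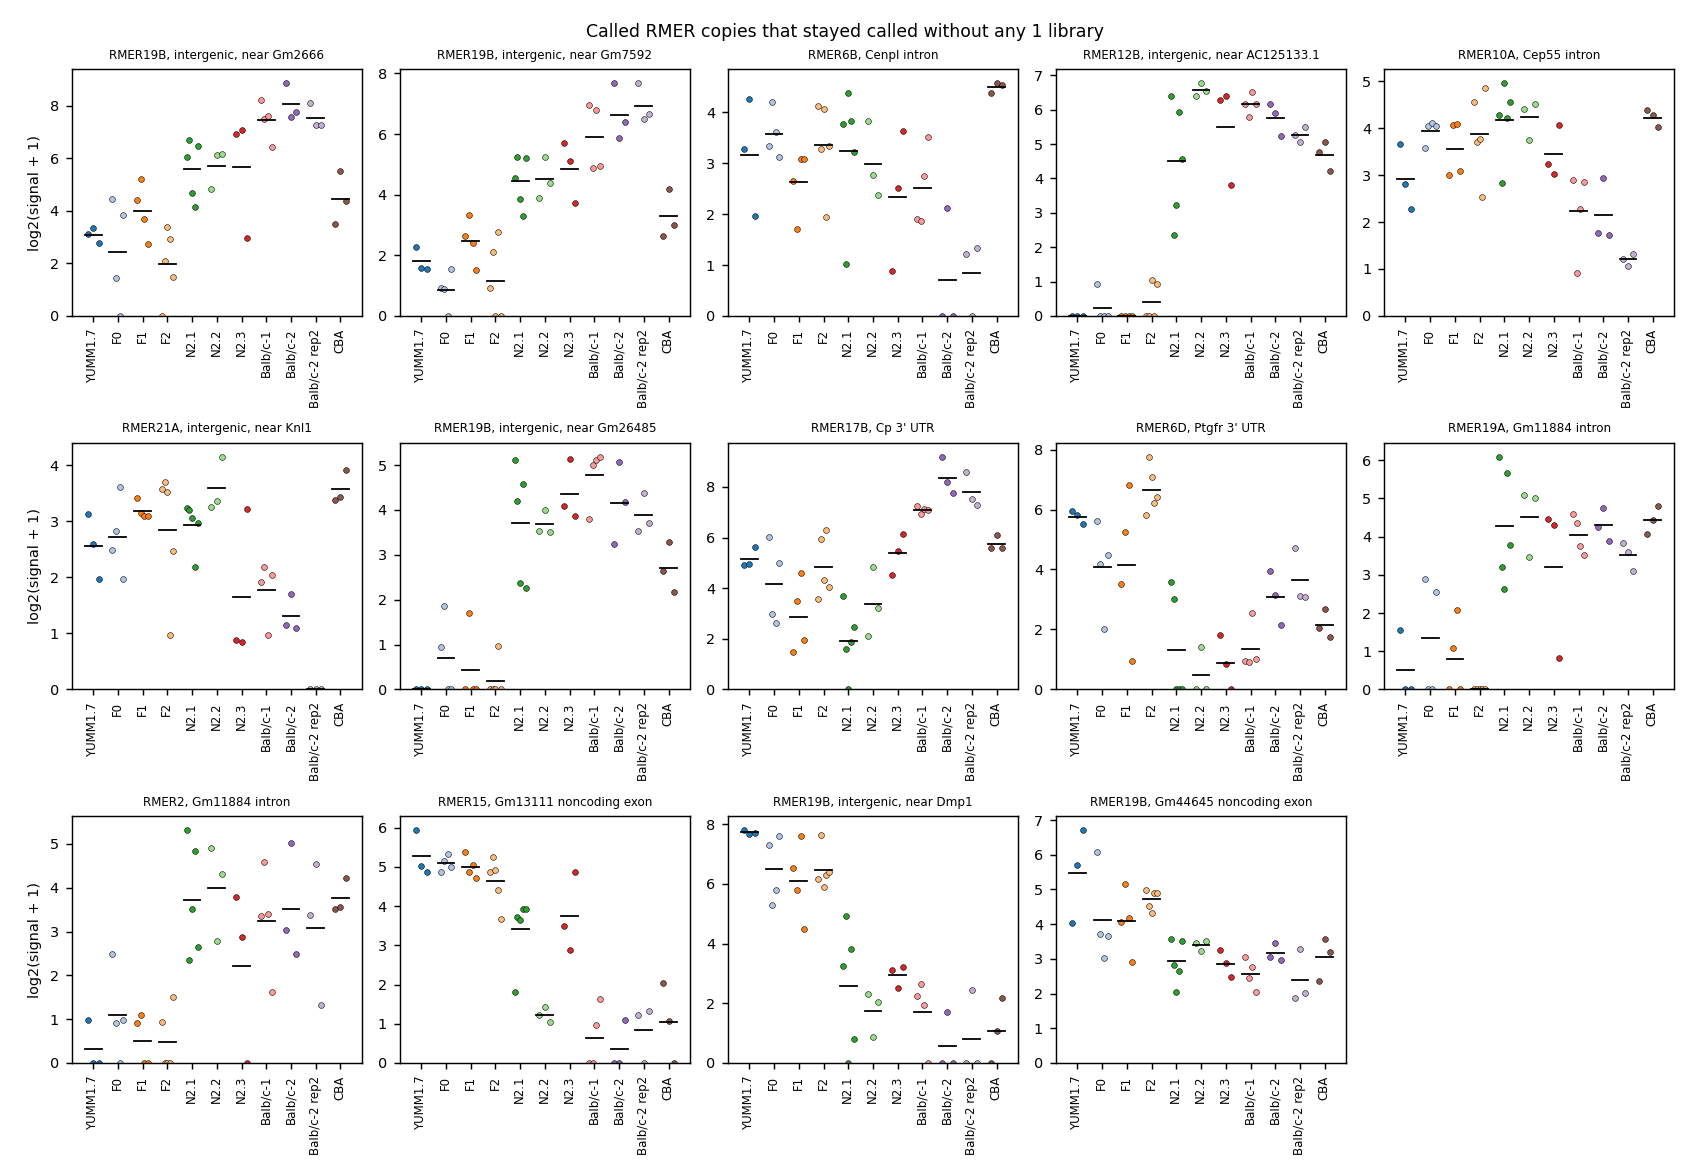
Signal of 14 called RMER copies in every library, on a log2(signal + 1) y axis, by group on the x axis; each point is 1 library and each bar a group mean. The copies were those of the named ones that stayed called when any 1 library was left out: the Gm11884 copies appear from N2.1 on, and the Ptgfr and Dmp1 copies are high in F2 (at least 55.6 and 59.0) and low in N2.1.

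A group of RMER19B copies on chromosome 1 rose together. They are 6 copies of 890 bases each between positions 84965457 and 85552364 of chromosome 1, 3 of them in introns of C130026I21Rik, and the others within 898 bases of the unnamed genes Gm15433, Gm2666 and Gm7592. Copies of equal length in repeated genes may be near-identical, so how reads were split among them is uncertain, and their sum is given as well. The copies near Gm2666 and Gm7592 met the naming rule. The other 4 were added after their values were seen.

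The copy near Gm2666, at chr1:85482466-85483355, held 64.7, 102, 24.9, 16.8 and 87.3 in N2.1 against 0, 3.28, 9.48, 6.69 and 1.82 in F2. It rose by 3.62 ± 0.68 (limma adjusted p = 0.00037). The copy near Gm7592, at chr1:85551475-85552364, held 22.7, 36.8, 13.5, 8.83 and 36.1 against 0.911, 3.28, 0, 5.74 and 0, a rise of 3.28 ± 0.52 (adjusted p = 3.23e-05). Neither overlapped between the groups. The other 4 rose by 1.77 to 3.13, with adjusted p values of 0.00235 to 0.0414.

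Summed over the 6 copies, the signal was 27.4 ± 27.2 (SD, n = 5) in F2, 217 ± 128 (SD, n = 5) in N2.1 and 301 ± 173 (SD, n = 3) in N2.3. It was 686 ± 372 (SD, n = 4) in Balb/c-1 and 1193 ± 727 (SD, n = 3) in Balb/c-2, steps that lay within the spread: in Balb/c-1 against N2.3 none of the 6 was called (adjusted p 0.229 to 0.601). The repeat libraries of the Balb/c-2 tumours gave 937 ± 471 (SD, n = 3), and CBA gave 109 ± 76.2 (SD, n = 3). From Balb/c-2 rep2 to CBA, 5 of the 6 fell, the one near Gm7592 by 3.66 ± 0.67 (limma adjusted p = 0.00108) and the one at chr1:85155022-85155911 not called (adjusted p = 0.235). Shorter RMER19B copies of 613 to 815 bases in the same stretch averaged 0.03 to 0.73 signal over all libraries.

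**Figure D4:**
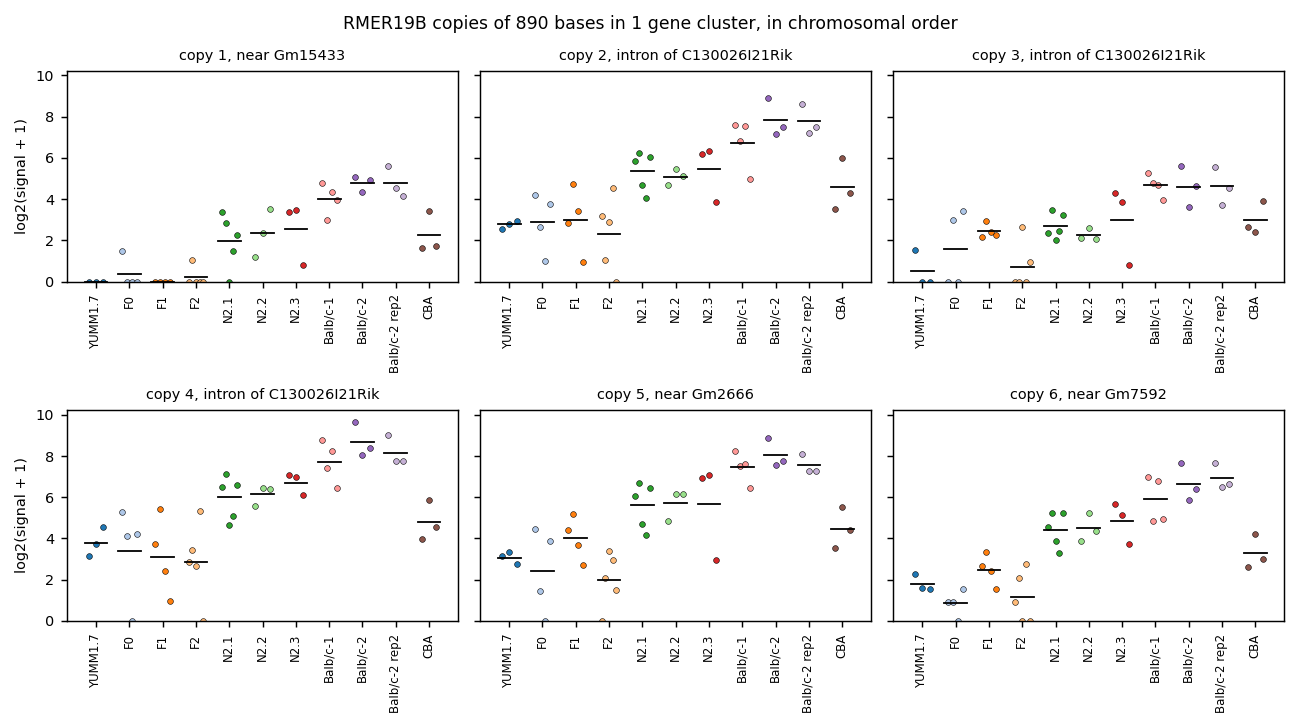
Signal of the 6 RMER19B copies of 890 bases on chromosome 1, in chromosomal order, on a shared log2(signal + 1) y axis and by group on the x axis; points are libraries and bars group means. The copies are low from YUMM1.7 to F2, higher in N2.1 to N2.3, highest in the Balb/c groups and lower in CBA, with a summed mean of 27.4 in F2, 217 in N2.1, 1193 in Balb/c-2 and 109 in CBA.

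As sums, 25 of 65 RMER subfamilies rose in N2.1 against F2 and none fell (38.5%, beside 36.5% of all repeat names). RMER15 rose by 0.37 ± 0.05 (limma adjusted p = 2.33e-06), RMER4B by 0.24 (adjusted p = 0.000686), RMER6A by 0.41 (adjusted p = 0.0019) and RMER15-int by 0.28 (adjusted p = 0.00695). The median difference was 0.32 over all 1219 names and 0.34 over RMER names. RMER4B and RMER15-int thus rose by less than the typical name, and RMER15 by little more. RMER19B, RMER1B, RMER30 and RMER6C were within 0.08 of no change, below both medians, and were not called. The largest rises were in sparse ERVK names. RMER16B2 held 43.7, 35.8, 39.5, 33.6 and 52.7 in N2.1 against 26.4, 14.2, 19, 13.4 and 11.8 in F2, a rise of 1.27 ± 0.25 (adjusted p = 0.000293) with no overlap. RMER17A-int held 46.2, 26.6, 27.0, 49.5 and 30.1 against 21.9, 12.0, 8.4, 11.5 and 17.3 and rose by 1.3 ± 0.29 (adjusted p = 0.000774). RMER16B rose by 1.68 ± 0.42 (adjusted p = 0.00239) and RMER16-int~RMER16B2 by 1.61 ± 0.43 (adjusted p = 0.00454), while RMER16-int~RMER16A3 (0.97 ± 0.37, adjusted p = 0.038) was not called without F2 library B (adjusted p = 0.0968). With the intron share as covariate RMER17A-int (limma adjusted p = 0.0869), RMER16-int~RMER16B2 (0.245) and RMER16-int~RMER16A3 were not called. RMER16B2 and RMER16B kept their calls with it. RMER16-int~RMER16A3 also lost its call with TMM scaling and with no minimum signal.

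These counts depended on the scaling and on the intron share. With TMM scaling 6 RMER subfamilies were called higher and 10 lower, and with the intron share as covariate 5 were called higher and 1 lower. Over all 1219 names the same settings gave 122 higher and 137 lower, and 145 higher and 9 lower.

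The 12 called RMER15 copies were mostly in 3′ UTRs. Of 98 tested RMER15 copies 29 lay in 3′ UTRs, and 7 of the 12 called ones did: in Micu2, and in the zinc finger genes Zfp820, Zfp942, Zfp946, Zfp871, Zfp985 and Gm13212. The zinc finger copies rose by 0.95 to 1.13, except for 2.66 in Gm13212 and 3.06 in Zfp985. Zinc finger genes of this kind can be close copies of one another, so reads may be split among them, and values for single genes are uncertain. Zfp985's copy, at chr4:147584976-147585279, had no read in any of the 16 libraries from YUMM1.7 to F2, and held 21, 27.6, 0, 35.3 and 0.752 in N2.1. Introns of Stk11, Ccl25 and Ctsh held 3 more, with rises of 1.47, 1.25 and 1.65. The copy ahead of Gm45920, whose sequence is given above, held 17.6, 23.5, 58.2, 24.7 and 53.4 in N2.1 against 4.56, 8.75, 7.38, 6.69 and 7.27 in F2. It rose by 2.07 (adjusted p = 0.00903), without overlap.

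Micu2, which encodes a regulator of the mitochondrial calcium uniporter, was one of them. Its RMER15 copy at chr14:57916224-57916344 held 260, 297, 314, 305 and 340 in N2.1 against 116, 178, 109, 117 and 107 in F2. The rise was 1.29 ± 0.17 (limma adjusted p = 1.14e-06) with no overlap. The other repeat copies in the exons of Micu2 did not rise with it, averaging 583 in N2.1 and 661 in F2.

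N2.3 against N2.1, passages whose names share the N2 prefix, called 10 RMER copies higher and 10 lower, of which 17 did not overlap (85.0%, beside 88.4% of all 466 called copies, with 1.40% of all copies called). One that rose was the RMER17B copy in the 3′ UTR of Cp, the gene of the copper protein ceruloplasmin, at chr3:19992738-19992868. It held 22.0, 43.4 and 68.9 in N2.3 against 11.8, 2.05, 0, 2.65 and 4.51 in N2.1 and rose by 3.45 ± 0.69 (limma adjusted p = 0.00553). It had fallen by 2.91 from F2 to N2.1, a comparison that shares the N2.1 libraries, and it went on to 582, 288 and 214 in Balb/c-2. The other repeat copies in Cp exons went from 178 in F2 to 10.6 in N2.1 and 167 in N2.3.

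Aim2, which encodes a sensor of cytosolic DNA, showed the same order in an RMER19B copy that overlaps its 5′ UTR at chr1:173427116-173427917. It held 55.1, 52.9 and 75.0 in N2.3 against 12.6, 5.11, 0, 1.77 and 10.5 in N2.1, a rise of 3.66 ± 0.85 (adjusted p = 0.017). The call was lost without N2.1 library C (adjusted p = 0.0709). An RMER17C copy 1485 bases from Il12rb1, an interleukin-12 receptor gene, held 73.7, 88.3 and 26.5 against 6.72, 8.18, 6.24, 7.07 and 0.752. It rose by 3.26 ± 0.67 (adjusted p = 0.00614, and 0.0553 without N2.3 library B).

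Zfp985's RMER15 copy rose further, to 41.5, 99.4 and 41.6 in N2.3, by 2.77 (limma adjusted p = 0.0449, and 0.232 without N2.3 library B). An RMER30 copy in an intron of the collagen gene Col6a3 rose by 2.43 (adjusted p = 0.0459) and the RMER10A copy in the 3′ UTR of Fam210b by 1.87 (adjusted p = 0.0498). Leaving out 1 library ended the Col6a3 call in 6 of 8 fits (adjusted p up to 0.133, without N2.3 library B) and the Fam210b call in 8 of 8 (up to 0.259, without N2.3 library C). The 6 lowest were falls of 1.89 to 2.49: an RMER5 copy at chr5:53355848-53356241, RMER21A in B130055M24Rik, RMER13B in Ccdc82, RMER19C in Knstrn, RMER1B near Clca2 and RMER6C near Bin1. Each was lost in 4 to 7 of the 8 fits. Without N2.3 library B only 4 RMER copies were called in this comparison. No subfamily was called by limma or edgeR and 1 was by DESeq2 (2 at an unadjusted p under 0.05 in limma), beside 2.13% of all names. RMER1A and RMER1B came nearest, with differences of −0.34 and −0.19 and adjusted p values of 0.0734 and 0.174.

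From N2.3 to Balb/c-1, 11 RMER copies rose and 10 fell, and 18 of the 21 did not overlap (85.7%, beside 91.4% of all 732 called copies, with 2.2% of all copies called). The RMER15 copy in Gm13111, whose sequence is given above, was lower in Balb/c-1. It held 0, 0, 0.961 and 2.08 in Balb/c-1 against 10.2, 6.31 and 28.0 in N2.3, and fell by 3.09 ± 0.54 (limma adjusted p = 0.00116). From YUMM1.7 to F2 it had stood at 11.8 to 60.0 and in N2.1 at 2.52 to 14.3. It was already as low in N2.2, at 1.32, 1.67 and 1.04, and from Balb/c-1 to CBA no library exceeded 3.14.

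An RMER5 copy that overlaps the noncoding RNA 2510016D11Rik and the ion channel gene Tpcn1, at chr5:120551794-120552203, held 46.1, 45.0, 40.4 and 54.1 against 16.1, 15.0 and 4.54. It rose by 2.04 ± 0.40 (adjusted p = 0.00348, and 0.0683 without N2.3 library C). With its strand unknown, reads of the overlapping genes cannot be told apart. An RMER19C copy in the 5′ UTR of Olfr56 held 109, 52.1, 78.8 and 25.0 against 5.93, 9.47 and 3.79, a rise of 3.07 (adjusted p = 0.034, and 0.140 without N2.3 library C).

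Outside exons, an RMER17A2 copy 187 bases from Ly6a rose by 2.73 (limma adjusted p = 0.0238), and an RMER15-int copy in an intron of Iigp1, an interferon-induced GTPase, by 3.36 (adjusted p = 0.0445). RMER19A in a noncoding exon of Gm16118 (inside Wwox) and the intergenic RMER4B copy at chr5:108009684-108010225 rose by 2.91 and 1.91. Among the falls, the RMER19B copy in the 3′ UTR of the adaptor gene Shc2 went from 195, 164 and 53.0 in N2.3 to 23.0, 43.3, 32.7 and 17.7, a fall of 2.07 (adjusted p = 0.0123, and 0.0855 without N2.3 library A). RMER1B near Gpr107, RMER19A near Rrp1b, RMER17D near Abcc1 and RMER10B in the 3′ UTR of Tnfrsf23 fell by 2.08 to 3.13. The 8 copies of this paragraph other than Shc2's were each lost in 3 to 6 of the 7 fits that left out 1 library. Without N2.3 library C only 7 RMER copies were called. The 1 called subfamily was RMER17C-int~RMER17C2, with 0, 6.2, 4.8 and 3.1 against 9.3, 13.4 and 12.1, a fall of 1.79 ± 0.53 (adjusted p = 0.0469, and 0.208 without Balb/c-1 library A), beside 3.77% of all names.

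Balb/c-2 against Balb/c-1 called no RMER copy with limma (108 at an unadjusted p under 0.05), edgeR or DESeq2, which gave 0 and 0, and no subfamily (8 at an unadjusted p under 0.05). The smallest adjusted p values were those of RMER30 in Recql (2.77, adjusted p = 0.0753) and RMER4B in an intron of Taf4 (−2.41, adjusted p = 0.102). Among sums they were those of RMER16B2 (1.07) and RMER1B (0.26), both with an adjusted p of 0.142.

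The repeat libraries of the Balb/c-2 tumours give a measure of how far RMER values moved without a change of tumour. Between Balb/c-2 rep2 and Balb/c-2, 3 RMER copies were called, 1 higher and 2 lower, and all 3 did not overlap, as for all 77 called copies of any kind (0.232% of all copies called). The Micu2 RMER15 copy held 170, 140 and 106 in the repeat libraries against 350, 266 and 273, a fall of 1.10 ± 0.22 (limma adjusted p = 0.0142). The other exon copies of Micu2 averaged 689 against 636. The RMER15 copy in the 3′ UTR of the sphingolipid desaturase gene Degs1, at chr1:182275884-182276140, held 391, 395 and 366 against 788, 616 and 691, a fall of 0.85 ± 0.19 (adjusted p = 0.031). A short RMER1C copy over a coding exon of Adgra3, at chr5:50058551-50058631, went up instead, with 540, 333 and 430 against 202, 230 and 180, by 1.07 ± 0.25 (adjusted p = 0.0414). Each call rested on few libraries: adjusted p values were 0.153 for Micu2 and 0.256 for Degs1 without Balb/c-2 library A, and 0.269 for Adgra3 without Balb/c-2 rep2 library A.

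RMER15 as a sum also differed between the repeat libraries. It was 3423, 3569 and 3505 in Balb/c-2 rep2 against 4652, 4726 and 4732 in Balb/c-2, a fall of 0.43 ± 0.06 (limma adjusted p = 2.59e-05, beside 2.46% of all names called). Over RMER15 copies outside exons alone the difference was not called (adjusted p = 0.545). The same tumours thus gave RMER15 sums further apart in size than N2.1 and F2 were, where the rise was 0.37 ± 0.05. The median difference over all names was −0.15 between the repeat libraries and 0.32 in N2.1 against F2. The library names of Balb/c-2 rep2 and CBA carry a suffix in the form of a sequencing run code. Names in the other groups carry none. RMER15 sums near those of the early groups were seen again in these suffixed groups. How libraries were otherwise made or sequenced was not given per library. The part of library making or sequencing in the step of RMER15 across the groups was not tested. With tumour letter as a block, 6 RMER copies (4 higher, 2 lower) and 11 subfamilies (1 higher, 10 lower) were called, beside 29 copies higher and 124 lower over all 33215 and 33 names higher and 190 lower over all 1219. The 3 copies above and the RMER15 sum kept their calls with this block.

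CBA was compared with Balb/c-2 rep2 and gave 32 RMER copies higher and 28 lower, with those inside genes in 47 distinct host genes. Groups did not overlap for 57 of the 60 (95.0%), beside 96.8% of all 1970 called copies (5.93% of all copies called). The median over tested RMER copies was 0.15, and over all tested copies 0.20. TMM scaling brought the latter to 0.06 and gave 28 RMER copies higher and 40 lower, beside 825 and 1218 over all copies. Of intronic copies 15 rose and 7 fell, of noncoding exon copies 8 rose and 2 fell, and of 3′ UTR copies 5 rose and 9 fell. Over all tested repeat copies 629 rose and 119 fell in introns, 211 and 62 in noncoding exons, and 176 and 438 in 3′ UTRs. The intron share again moved with the comparison, from 18.4% to 25.9%, and its part was not tested. By name, RMER19B rose in 2 copies and fell in 8, and RMER13A2 rose in 3 of 14.

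Rises stood out for 3 copies with steady values in CBA. The RMER6B copy in an intron of Cenpl, a centromere protein gene, at chr1:161074941-161075372, held 19.9, 22.8 and 22.3 in CBA against 1.33, 0 and 1.51, a rise of 3.65 ± 0.73 (limma adjusted p = 0.00247). The RMER10A copy in an intron of Cep55, which acts in cytokinesis, at chr19:38063011-38063470, held 19.9, 18.5 and 15.2 against 1.33, 1.10 and 1.51, a rise of 3.02 ± 0.55 (adjusted p = 0.000999). The RMER21A copy at chr2:119108799-119108970, 3298 bases from the kinetochore gene Knl1, held 9.42, 9.78 and 14.1 against no read, a difference of 3.57 ± 0.62 (adjusted p = 0.000651) and at least 2.81-fold higher against 3 reads per library. From YUMM1.7 to N2.2 these 3 copies had been read in every library, at 0.956 to 30.1, so they were not particular to CBA.

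Neil3, a DNA glycosylase gene, has a transcript start inside an RMER17C~RMER17C-int copy at chr8:53590883-53593544. The copy held 35.6, 48.9 and 72.7 in CBA against 2.66, 15.5 and 0, a rise of 3.71 ± 0.74 (limma adjusted p = 0.00242, and 0.0508 without Balb/c-2 rep2 library C). RMER15-int in the sterol gene Lss held 70.1, 79.3 and 45.7 against 13.3, 13.3 and 3.03 (2.78, adjusted p = 0.0194, and 0.151 without Balb/c-2 rep2 library C), and RMER15-int in an intron of Ap1m1 rose by 2.7 (adjusted p = 0.0327, and 0.124 without the same library). Without that library 19 RMER copies were called in all.

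The deepest falls in CBA were larger than the rises. The RMER12B copy in an intron of the noncoding RNA AC132320.1, at chr18:60308716-60309841, held 0, 8.69 and 2.35 against 176, 154 and 34.8, a fall of 4.96 ± 1.22 (limma adjusted p = 0.0114, and 0.0829 without CBA library A). The RMER10A copy at chr11:58191702-58192067, between Gm12250 and the interferon-induced GTPase gene Igtp, held 0, 17.4 and 2.35 against 168, 109 and 19.7. It fell by 4.2 (adjusted p = 0.0122, and 0.107 without CBA library A). The RMER1C copy at the start of 4930512H18Rik, whose sequence is given above, held 0, 1.09 and 0 against 31.9, 19.9 and 13.6. Its fall was 4.08 ± 1.01 (adjusted p = 0.0122, and 0.0557 without Balb/c-2 rep2 library A). RMER12B in Gm4070 and RMER15-int in Iigp1 fell by 3.57 and 3.46 (adjusted p = 0.0138 and 0.03, and 0.0677 without Balb/c-2 rep2 library A and 0.135 without CBA library A), and the second H2-Q4 copy of RMER19B, at chr17:35384633-35385833, by 3.01 (adjusted p = 0.0477). The first H2-Q4 copy had a difference of −2.73 and was not called (adjusted p = 0.0592).

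Among subfamilies in CBA, 4 rose and 2 fell (11.4% of all names called). RMER19B fell from 7896, 7577 and 6548 to 3298, 3886 and 4258, by 0.95 ± 0.18 (limma adjusted p = 0.000916). RMER13A2 rose from 233, 255 and 230 to 318, 353 and 402, by 0.57 ± 0.14 (adjusted p = 0.00902, and 0.0618 without CBA library C). RMER30 (0.27 ± 0.08, adjusted p = 0.0283) and RMER4A (0.44 ± 0.15, adjusted p = 0.048) rose without overlap, and both calls were lost in each of the 6 fits that left out 1 library, for example with adjusted p values of 0.0988 without CBA library A and 0.181 without Balb/c-2 rep2 library A. RMER21A was not called without CBA library C (adjusted p = 0.191). RMER1B fell by 0.25 ± 0.08 (adjusted p = 0.0409), was not called without Balb/c-2 rep2 library C (adjusted p = 0.341), and over copies outside exons alone it pointed the other way, at 0.42 (adjusted p = 0.11).

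Called RMER copies in exons mostly had the sign of the rest of their gene, as called repeat copies of any kind did. In N2.1 against F2, 28 of 33 called exon copies with other readable exon copies in the host gene had the sign of those other copies. The exceptions were in Trappc12, Micu2, Zcchc4, Ap3s2 and Tmem126b. The counts were 10 of 10 in N2.3 against N2.1 and 8 of 8 in Balb/c-1 against N2.3. In CBA against Balb/c-2 rep2 it was 21 of 22, where Rmc1 was the exception. These are counts of copies, not of genes. Tnfrsf23, Pigk, Shc2, Olfr56 and Wdr76 each entered a comparison with more than 1 copy, and those copies share the host value. Counted against all other exon copies of the host, RMER or not, 30 of 33 RMER copies shared the sign in N2.1 against F2, beside 1219 of 1368 called copies of any kind (89.1%). The shares over all called copies were 98.4%, 94.9% and 95.2% in the other 3. Outside exons, 33 of 50 called copies with a tested neighbour in N2.1 against F2 had another repeat copy called in the same direction within 10 kb, as did 22 of 31 in CBA against Balb/c-2 rep2. Over all called copies these were 909 of 1379 (65.9%) and 507 of 847 (59.9%). In N2.3 against N2.1 and Balb/c-1 against N2.3 they were 2 of 8 and 4 of 9, beside 58.6% and 42.0% of all. Whether RNA over such copies starts in the RMER copy or in a gene was not tested.

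**Figure D5:**
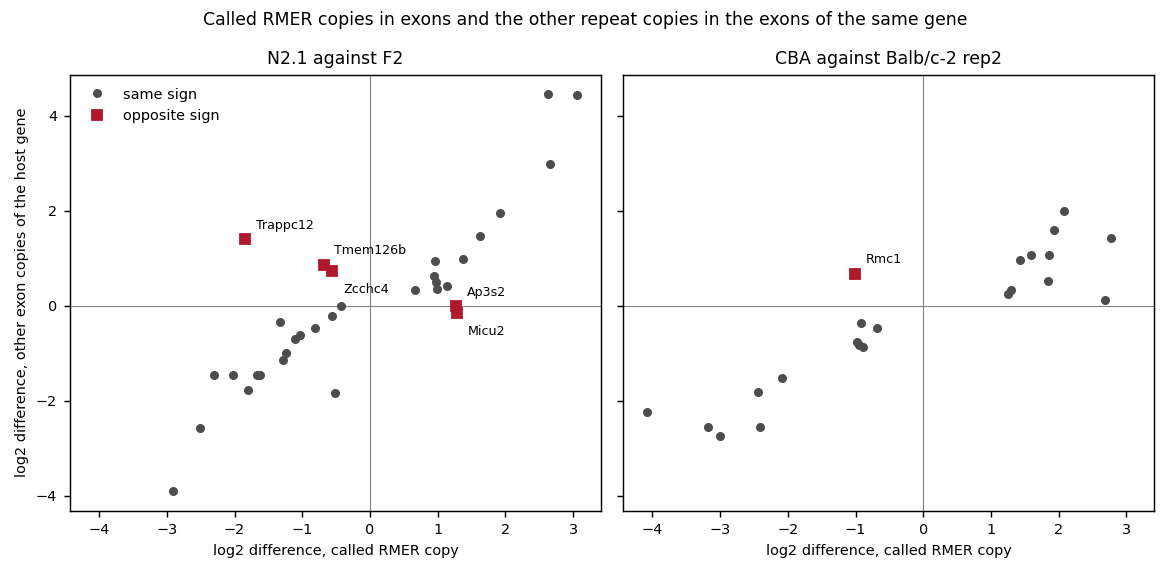
Log2 difference of each called RMER copy in an exon (x axis) against that of the other repeat copies in the exons of its host gene (y axis), for N2.1 against F2 and CBA against Balb/c-2 rep2; each point is 1 copy. Circles share the sign of their host (28 of 33 and 21 of 22) and red squares, named by host gene, do not.

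A transcript start of the GENCODE M21 annotation lay inside 234 RMER copies. Of these 26 were tested, 2.78% of the tested RMER copies, beside 830 of all tested copies (2.50%). The highest by signal were an RMER13A copy at the start of Airn, an imprinted antisense RNA, with a mean of 60.2, an RMER6B copy in Psma7, a proteasome subunit gene, with 34.7, and an RMER1B copy in Gm15601 with 31.2, followed by the Neil3 copy with 24.4. Copies that hold a GENCODE start were thus a small share of the number of tested RMER copies, at about the share found for all repeats. Their share of the signal was not measured. RefSeq places 5 gene starts inside tested RMER copies, among them that of Dmp1, whose copy had a mean of 50.7.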

How the data were processed

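Poly(A) RNA of 40 libraries was read over 835636 annotated repeat copies. The deposited table holds signal values: the authors divided whole read counts by 1 factor per library, which the values show, since all came out whole within 0.1 read. Per the submitters' processing notes the tools were HISAT2 2.0.5, StringTie 1.3.3b and featureCounts 1.5.0-p3 and the build mm10. For the counting itself no source used here gives the repeat annotation, the handling of reads that map to several copies or the strand setting. The protocol covers libraries with and without strand, so overlapping and antisense genes cannot be told apart. Reads shared by similar copies may be lost or split.

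Groups came from the labels. Copies, and sums per repeat name, with a mean signal of 5 or more were fitted with limma 3.58.1 in R 4.3.3 on log2(signal + 1), with 1 mean per group over 11 groups, a trended prior and two-sided tests, adjusted by Benjamini-Hochberg over all features of a comparison. Places and host genes were taken from GENCODE M21, with bedtools 2.31.1. The script was tested on simulated data. Alternatives were TMM scaling, edgeR 4.0.16 and DESeq2 1.42.0 on the recovered reads, no minimum or one of 20, a pseudocount of 5, leaving out each library, copies outside exons, the intron share as covariate and, for Balb/c-2, tumour letter as a block. Same-lettered Balb/c-2 and rep2 libraries come from the same tumours, and their deviations correlated at 0.155, 0.251 and 0.255 over copies.

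Members, lists and tests were chosen with earlier results of these data known. Copies were named by a rule: the 6 highest by mean, and per comparison the 6 highest and 6 lowest differences among called copies whose groups did not overlap, or the 2 with the smallest adjusted p where none was called. For subfamilies these were the 8 highest and the 5 highest and 5 lowest called.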

Additional observations from a re-analysis of the deposited data

Results flagged for a closer look

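In groups of 4 or 5 libraries, 123 sets of values were checked for a library far from the others, and 5 (4.07%) had such a library. The cut-off is meant to flag 1 in 20 sets of independent, normally spread values. These sets share libraries, were mostly picked for being called and include copies with single reads, so the share does not test chance. The RMER1B copy in Cflar was at 1285.78 signal in N2.1 library B, with 758 to 872 in the other 4. The RMER19B copy near Dmp1 was at 196.778 in F2 library B, with 59.0 to 83.6 in the others, and that library also had the highest Ptgfr copy. The RMER17C copy near Il12rb1 was at 0.752 in N2.1 library E, a single read, with 6.24 to 8.18 in the others. The RMER19A copy in Gm16118 was at 2.648 in Balb/c-1 library B, with 10.6 to 12.5 in the others. The RMER19B copy at chr3:16537303-16538270 was at 0.956 in F2 library D, a single read where the others had none.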

How the results depend on the processing

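Counts are of called RMER copies unless sums per name are meant. For N2.1 against F2, 98 copies became 48 with no minimum signal, 47 with a minimum of 20 and 44 with the intron share as covariate. The 25 subfamilies became 16 with TMM scaling, 6 with the covariate and 40 over copies outside exons. Outside exons 62 RMER names were tested, and of all 1089 names 509 were called higher and 12 lower. For N2.3 against N2.1, 20 copies became 12 with TMM (beside 195 higher and 159 lower of all copies) and 101 with no minimum (beside 2474 and 213). The 0 subfamilies became 1 with TMM (beside 16 higher and 8 lower of all names) and 1 with DESeq2 (beside 32 and 20). For Balb/c-1 against N2.3, 21 copies became 33 with DESeq2 (beside 425 higher and 760 lower of all copies) and 106 with no minimum (beside 444 and 2418). The 1 subfamily became 0 with TMM, edgeR, no minimum, a minimum of 20, a pseudocount of 5 and copies outside exons. For CBA against Balb/c-2 rep2, 60 copies became 35 with edgeR (beside 516 higher and 587 lower of all copies) and 16 with no minimum (beside 291 and 362). For F2 against F0, the 1 copy became 0 with edgeR, no minimum and a pseudocount of 5, and the 1 subfamily 0 with no minimum. For Balb/c-2 against Balb/c-1, 0 copies became 45 with no minimum, beside 1363 higher and 111 lower of all copies.

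For Balb/c-2 rep2 against Balb/c-2, 3 copies became 0 with TMM, 1 with edgeR, 5 with DESeq2, 8 with no minimum, 5 with a minimum of 20 and 6 with tumour letter as replicate block. In the same order, calls among all copies were 7 higher and 22 lower, 4 and 31, 17 and 112, 22 and 157, 18 and 116, and 29 and 124. The 1 subfamily became 11 with the replicate block and 0 outside exons. RMER1B in CBA against Balb/c-2 rep2 turned from −0.25 to 0.42 outside exons. The causes were not tested.

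Leaving out 1 library gave 0 to 1 copies for F2 against F0, 59 (without F2 B) to 102 for N2.1 against F2, 4 (without N2.3 B) to 24 for N2.3 against N2.1 and, for Balb/c-1 against N2.3, 7 (without N2.3 C) to 21. It gave 0 to 2 for Balb/c-2 against Balb/c-1, 0 to 4 for rep2 against Balb/c-2 and 19 (without rep2 C) to 74 for CBA. For subfamilies the ranges were 0 to 1, 19 to 30, 0 to 0, 0 to 2, 0 to 0, 1 to 1 and 1 (without CBA C) to 6 in the same order. Of the 52 named calls of copies, 37 were lost in at least 1 such fit and none reversed. Depth limits what can be said of copies with a few reads per library.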

Other observations

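The RMER copy with the highest mean outside exons was an RMER19B copy in an intron of Sdccag8. Among all tested repeat copies over 100 kb away, those whose values followed it most closely over the 40 libraries were an ID4 copy in the 3′ UTR of Wars (Spearman's rho 0.754), a Charlie6 copy in that of Thumpd1 (0.750) and a PB1D10 copy in that of Gtf2f2 (0.726). These are descriptions over 40 libraries that share groups and depth, and no p-value is attached to them.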
